A study of Mus musculus with 2 samples.

Results

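Mitochondrial aminoacyl-tRNA synthetases are nuclear-encoded enzymes that charge the tRNAs of the mitochondrion, and 9 of them are described here: Lars2, Iars2, Hars2, Vars2, Sars2, Aars2, Ears2, Fars2 and Nars2. They were taken from the deposited expression table by gene symbol, and all 9 were found among its 26601 genes. Lars2 was selected on its TPM, since it takes a large share of both columns, so its level is given as a description. The table came from mouse CT26 tumours, a colon carcinoma line from BALB/c mice, grown subcutaneously in WT mice of that strain. FuOXP joins the drugs fluorouracil and oxaliplatin in a single molecule. A first library was made from tumours of mice given it in nanoparticles (FuOXP NP) at 10 mg of FuOXP per kg, and a second from mice given nanoparticles without it (Empty NP). In both groups tumours of about 200 mm3 were treated by 3 injections into a vein at intervals of 5 days and taken 24 h after the last. The design names 3 mice, and the sources used here do not say whether their RNA was pooled. The host mice and the tumour line were otherwise the same in both groups.

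Each group has 1 library, so the spread between tumours is unknown and no test was run. Values are TPM, length-scaled transcript abundances, in which each library is scaled to the same total, and a row that takes a larger part lowers all others. The low values lay on steps of 1 read per exon length, which let read numbers be recovered. On 1000 exon bases 1 read was worth 1.91 TPM in FuOXP NP and 3.56 TPM in Empty NP. Recovered reads of genes with a symbol and a length summed to 465531 in FuOXP NP and 366877 in Empty NP, and the median gene above 0 rested on 4 and 6 reads. Differences are log2((FuOXP NP + 1)/(Empty NP + 1)), called the log2 difference below, where the added 1 TPM is a pseudocount. Its median among 9488 genes with a mean of at least 1 TPM was -1.44, which is 2.71-fold lower in FuOXP NP. That figure carries the pseudocount, while the fold values of single genes and pools below do not. The median was -1.82 with a pseudocount of 0.1 TPM, and -1.64 among genes with a mean of at least 5 TPM. As deposited, 69.8% of the 9488 genes were at least 2-fold lower and 2.34% at least 2-fold higher. A gene listed at 0 in 1 library reaches this mean only through the other, so its place past 2-fold was fixed by the filter. This holds for such genes in every count below. Each interval is an exact 95% Clopper-Pearson interval of the share of reads in FuOXP NP, put on the TPM scale. It covers the error of counting alone and compares these libraries, not the treatments. In bulk tumour RNA, fewer cells of a type and less RNA per cell cannot be told apart.

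The tumour label was set against marker genes. Of 10 epithelial and carcinoma markers, 6 were listed at 0 in both libraries, among them Epcam, Krt8 and Krt19, and the list summed to 4.94 TPM in FuOXP NP and 6.56 TPM in Empty NP. Vim, a mesenchymal intermediate filament, stood at 68.8 TPM in FuOXP NP and 241 TPM in Empty NP. Of 6 skeletal muscle markers, 5 were listed at 0 in FuOXP NP, and the list summed to 0.317 TPM there and to 79.5 TPM in Empty NP. Muscle is rich in mitochondria, and the part of this difference in the results below was not tested.

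An aminoacyl-tRNA synthetase joins an amino acid to its tRNA. Mitochondria translate a small set of messenger RNAs from their own genome, all for subunits of the respiratory chain and the ATP synthase, and they use their own tRNAs to do so. The enzymes that charge those tRNAs are encoded in the nucleus, made in the cytosol and imported, and most have a cytosolic counterpart from a separate gene (Lars2 and Lars for leucine). Exceptions are the glycine and lysine enzymes, where Gars and Kars each serve both compartments. Mitochondrial glutaminyl-tRNA is made indirectly, by Ears2 and a glutamyl-tRNA amidotransferase.

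Promoter sequences are shown for Lars2, which was higher in FuOXP NP, and for Iars2, the most abundant of the remaining members and lower in FuOXP NP. Each is the 250 bases before the start annotated by RefSeq (GRCm38.p6), read 5′ to 3′ on the strand of the gene. Capitals mark GC boxes (GGGCGG, or CCGCCC for the reverse strand) and the CCAAT box (ATTGG for the reverse strand).
Lars2, chr9:123366677-123366926, plus strand: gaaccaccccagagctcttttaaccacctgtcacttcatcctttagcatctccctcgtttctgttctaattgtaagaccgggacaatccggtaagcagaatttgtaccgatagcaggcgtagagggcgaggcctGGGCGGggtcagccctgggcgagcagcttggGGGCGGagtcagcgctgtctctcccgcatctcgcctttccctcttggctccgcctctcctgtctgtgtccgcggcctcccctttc
Iars2, chr1:185329402-185329651, minus strand: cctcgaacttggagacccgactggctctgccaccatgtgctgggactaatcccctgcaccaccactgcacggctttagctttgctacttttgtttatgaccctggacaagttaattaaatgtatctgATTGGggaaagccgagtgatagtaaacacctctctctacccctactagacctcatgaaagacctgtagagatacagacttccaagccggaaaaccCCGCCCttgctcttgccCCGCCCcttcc

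RefSeq gave a promoter for 8 of the 9 members and for 16 of the 19 mitochondrial and dual-located synthetases, and its starts can differ from those of GENCODE. The Lars2 window had a GC content of 59.2% and 2 GC boxes, and the Iars2 window had 51.6%, 2 GC boxes and a CCAAT box. The median over 32851 promoters was 52.4%. Searched on both strands, the GC box occurred in 7 of the 8 member promoters and in 32.7% of all promoters of this length, and CCAAT in 3 of 8 and in 33.8% of all. The NRF-1 motif, bound by a factor known for nuclear genes of mitochondria, was found in 0 of 8 members and 3.74% of all promoters. An ETS motif (CCGGAAG) was found in Sars2 alone among the members and in 6.91% of all promoters. The amino acid response element (TGATGNAA) was found in 0 of 8 members and 3.45% of all promoters. Lars2 and Iars2 share the GC box, which 12 of the 16 synthetase promoters hold. Whether any of these motifs bears on the levels was not tested.

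Lars2 encodes the leucyl-tRNA synthetase of mitochondria and lies on chromosome 9 from 123366927 to 123462666 on the plus strand (GRCm38), where its exons overlap no other annotated gene. It was listed at 124657 TPM in FuOXP NP and 41648 TPM in Empty NP. The level in FuOXP NP was 2.99-fold higher (interval 2.96 to 3.02), a log2 difference of 1.58, or 3.02 above the median gene. Lars2 was the most abundant row with a symbol in FuOXP NP and the second in Empty NP, where the non-coding RNA Eyelinc18 was above it. It made up 12.5% of the summed TPM of all rows in FuOXP NP and 4.16% in Empty NP, and 43.5% and 11.2% of the TPM of rows with a symbol.

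The reads behind these values could be counted once the length was settled. On the 11089 exon bases that GENCODE vM21 gives all Lars2 transcripts together, the values did not come to whole reads. A search of lengths up to 16000 bases found 4 that give whole reads in both libraries, all multiples of 3881 bases. The shortest, 3881 bases, gives 253594 reads in FuOXP NP and 45386 in Empty NP. That length is close to the 3894 bases of its longest coding transcript. Lars2 then held 54.5% of recovered reads in FuOXP NP and 12.4% in Empty NP. Reads of all other genes with a length summed to 211937 in FuOXP NP and 321491 in Empty NP.

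**Figure D1:**
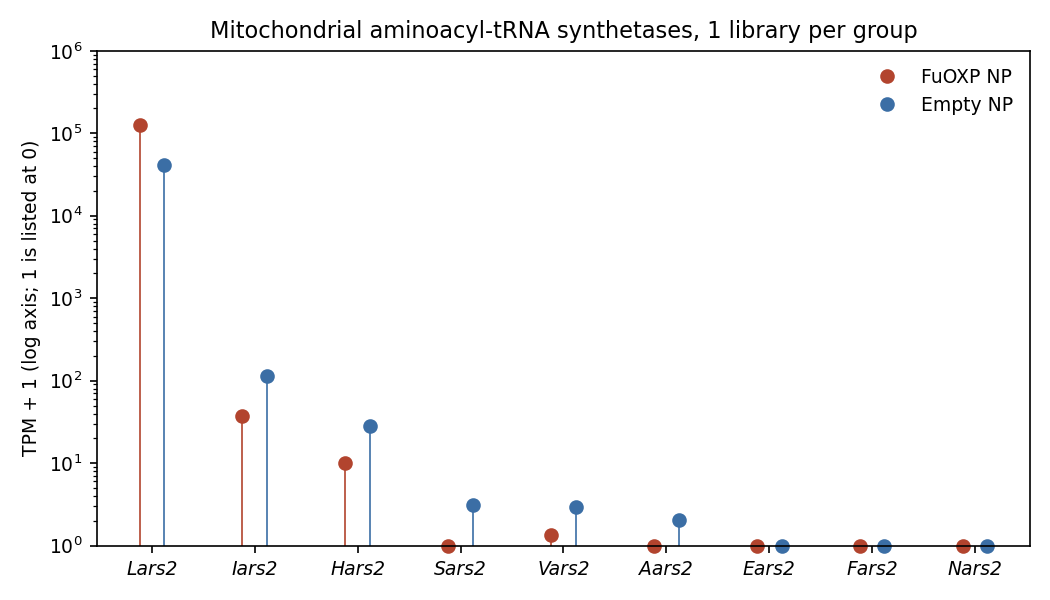
Level of each of the 9 mitochondrial synthetases as TPM + 1 on a log axis, where 1 means listed at 0, with FuOXP NP in red to the left and Empty NP in blue to the right and 1 library per group. Lars2 stood at 124657 TPM in FuOXP NP and 41648 TPM in Empty NP, and no other member exceeded 36.1 TPM in FuOXP NP or 113 TPM in Empty NP.

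Lars2, which was selected for its level, was set against the rest of the family. The other 8 members summed to 45.3 TPM in FuOXP NP and 146 TPM in Empty NP, so that Lars2 made up 99.96% and 99.65% of the TPM of the 9. It exceeded Iars2, the next member, 3456-fold in FuOXP NP and 368-fold in Empty NP. It exceeded its cytosolic counterpart Lars, at 5.94 TPM in FuOXP NP and 26.8 TPM in Empty NP, 20997-fold in FuOXP NP and 1555-fold in Empty NP. Lars2 was higher in FuOXP NP, while none of the other 8 was. Ears2, Fars2 and Nars2 were listed at 0 in both libraries, and Vars2, Sars2 and Aars2 had 3 reads or fewer in each. The direction of the other members thus rests on Iars2 and Hars2.

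Iars2, the isoleucyl-tRNA synthetase, lies on chromosome 1 from 185284726 to 185329396 on the minus strand. It was listed at 36.1 TPM in FuOXP NP and 113 TPM in Empty NP, on 168 and 282 reads. That was 3.13-fold lower in FuOXP NP (interval 2.58 to 3.82), or -0.18 relative to the median gene on the log2 scale. The interval holds the 2.71-fold of the median gene, but that figure carries the pseudocount and the fold of Iars2 does not. Iars2 carried 79.6% of the TPM of the 8 members in FuOXP NP and 77.6% in Empty NP. Of its 8885 exon bases, 2148 overlap other genes, mainly Rab3gap2 on the opposite strand (4.77 TPM in FuOXP NP and 14.2 TPM in Empty NP), and the sources used here do not say whether reads were counted by strand.

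Hars2, the histidyl-tRNA synthetase, lies on chromosome 18 from 36783008 to 36792562 on the plus strand. It was listed at 8.92 TPM in FuOXP NP and 27.5 TPM in Empty NP, on 20 and 33 reads. It was 3.08-fold lower in FuOXP NP (interval 1.72 to 5.66), at -0.08 relative to the median gene. Iars2 stood at 4.05 times Hars2 in FuOXP NP and 4.12 times in Empty NP. With Hars2 on 20 and 33 reads this proportion is only loosely fixed, and both genes lay near the median gene. The end of Hars2 overlaps its cytosolic counterpart Hars on the opposite strand by 195 bases, and Hars was listed at 1.92 TPM in FuOXP NP and 8.96 TPM in Empty NP.

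The remaining 6 members rested on 3 reads or fewer in each library. Vars2, the valyl-tRNA synthetase (chromosome 17, 35655634 to 35667592), was listed at 0.349 TPM in FuOXP NP and 1.96 TPM in Empty NP, on 1 and 3 reads. The interval of its TPM ratio, FuOXP NP over Empty NP, ran from 0.0034 to 2.22, so a difference in either direction was not detectable at this depth, and 465 of its exon bases overlap Gm20483. Sars2, the seryl-tRNA synthetase (chromosome 7, 28741992 to 28753871), was listed at 0 in FuOXP NP and 2.15 TPM in Empty NP, on 2 reads. Aars2, the alanyl-tRNA synthetase (chromosome 17, 45506841 to 45520843), was listed at 0 in FuOXP NP and 1.06 TPM in Empty NP, which is 1 read on 3348 bases. All 3 had values above 0 in Empty NP, and 1 of them, Vars2, did in FuOXP NP.

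Ears2 for glutamate, Fars2 for phenylalanine and Nars2 for asparagine were listed at 0 in both libraries. Ears2 lies on chromosome 7 from 122037213 to 122067263, Fars2 on chromosome 13 from 36117412 to 36726280 and Nars2 on chromosome 7 from 96951505 to 97064758. For Ears2 a single read would have been 0.37 TPM in FuOXP NP and 0.691 TPM in Empty NP, for Fars2 0.332 and 0.62 TPM, and for Nars2 0.274 and 0.511 TPM. A level below these steps cannot be seen in these libraries.

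Of the 9 members, 5 passed the filter of a mean of 1 TPM. Lars2 was at least 2-fold higher in FuOXP NP, and Iars2, Hars2, Vars2 and Sars2 were at least 2-fold lower, beside 69.8% of all genes tested. Sars2, at 0 in FuOXP NP, passed through Empty NP alone, so the filter fixed its count as lower. Vars2 passed through its Empty NP value, on 1 read in FuOXP NP and 3 in Empty NP. At a mean of 5 TPM the count was 2, and the share of all genes was not computed at that mean. No member passed 2-fold below the median gene, where 12.2% of all genes lay, and Lars2 alone passed 2-fold above it, as 12.6% did. The 4 members besides Lars2 that passed the filter, Sars2 and Vars2 among them, had a median of -1.57, beside -1.44 over all genes tested. Over all 8, with 3 listed at 0 in both libraries, it was -1.09, beside 0 over all 26601 genes without the filter. Pooled, their reads were 189 in FuOXP NP and 321 in Empty NP, which is 3.17-fold lower in FuOXP NP (interval 2.64 to 3.82). Since 168 and 282 of these were Iars2 reads, the pool was also computed without it, and it then held 21 and 39 reads, 3.47-fold lower (interval 1.99 to 6.2). In order of Empty NP level the members ran Lars2, Iars2, Hars2, Sars2, Vars2, Aars2 and then those at 0, and Sars2, Vars2 and Aars2, on 1 to 3 reads each in Empty NP, cannot be ordered at this depth.

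**Figure D2:**
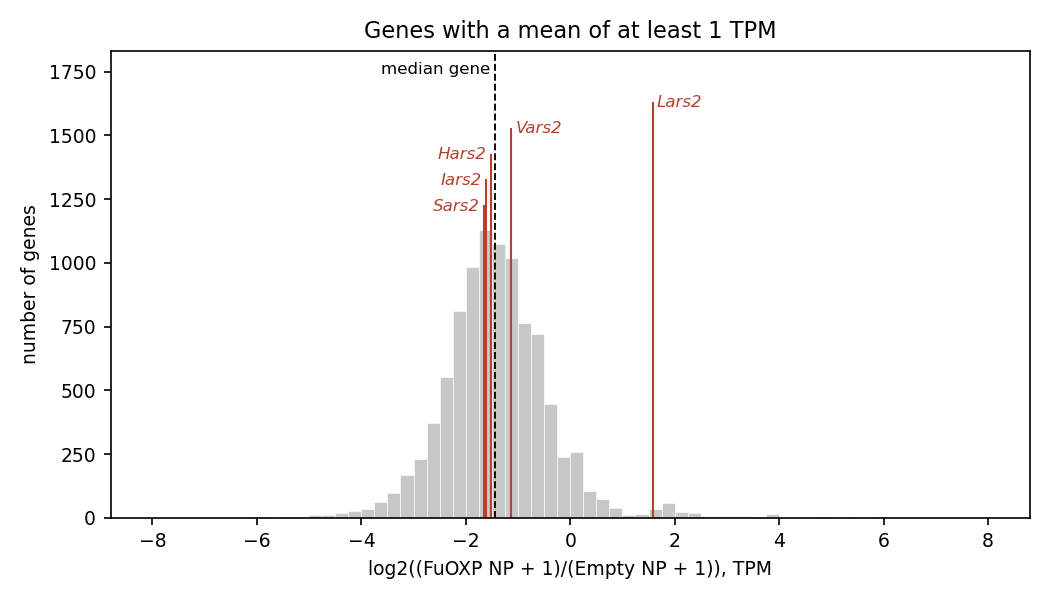
Number of genes by log2((FuOXP NP + 1)/(Empty NP + 1)) of TPM for the 9488 genes with a mean of at least 1 TPM, with the median gene dashed at -1.44 and the 5 members that passed the filter as red lines. Lars2 lies at 1.58, to the right of zero, while Iars2 at -1.62, Hars2 at -1.52, Sars2 at -1.66 and Vars2 at -1.13 lie around the median gene.

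The table also holds 8 further mitochondrial synthetases, named here from a list of the family. Tars2, for threonine, was listed at 1.1 TPM in FuOXP NP and 23.1 TPM in Empty NP, on 4 and 45 reads. It was 21.0-fold lower in FuOXP NP (interval 7.66 to 80.4), or -2.08 relative to the median gene, the only one of the 17 mitochondrial synthetases past 2-fold below that gene. Of the Tars2 transcript, 184 bases after the coding end match 39 other genes, so some of its reads may be shared. Yars2, for tyrosine, was listed at 0.606 TPM in FuOXP NP and 5.65 TPM in Empty NP, on 1 and 5 reads. Its interval, 1.04 to 441-fold lower, shows how little these reads fix.

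Rars2, for arginine, had 2 reads in each library, listed at 1.38 TPM in FuOXP NP and 2.57 TPM in Empty NP. Mars2, for methionine, had 4 and 5 reads, at 0.676 TPM in FuOXP NP and 1.58 TPM in Empty NP. Cars2, for cysteine, had 1 read in each, at 0.264 TPM in FuOXP NP and 0.492 TPM in Empty NP. Pars2, for proline, and Wars2, for tryptophan, were listed at 0 in FuOXP NP and on 1 read each in Empty NP, at 1.15 and 0.599 TPM. An equal number of reads thus stands for a lower TPM in FuOXP NP.

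Of these 8 synthetases, 5 passed the filter, 3 of them at least 2-fold lower and 0 at least 2-fold higher, beside 69.8% and 2.34% of all genes. Their pooled reads were 15 in FuOXP NP and 66 in Empty NP, 8.21-fold lower (interval 4.64 to 15.5). Without Tars2 the pool held 11 and 21 reads, 3.56-fold lower (interval 1.64 to 8.18), so Tars2 set the larger figure. Over all 16 mitochondrial synthetases other than Lars2, the pooled reads were 204 in FuOXP NP and 387 in Empty NP, 3.54-fold lower (interval 2.98 to 4.22). Lars2 made up 99.96% of the TPM of all 17 in FuOXP NP and 99.56% in Empty NP.

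Gars, which charges glycine tRNAs in both compartments, was listed at 4.89 TPM in FuOXP NP and 32.0 TPM in Empty NP, 6.53-fold lower (interval 2.9 to 16.6) on 8 and 28 reads. Kars, which does so for lysine, was listed at 5.56 TPM in FuOXP NP and 8.78 TPM in Empty NP, 1.58-fold lower on 13 and 11 reads, and its interval included no difference. Among 24 genes of the cytosolic synthetases and their complex, these dual enzymes included, 23 passed the filter and 19 were at least 2-fold lower, beside 69.8% of all genes. The median was -1.58, or -0.14 relative to the median gene. On the log2(TPM + 1) scale 0 were at least 2-fold higher. The lowest were Gars and Sars, for serine, at 2.6 TPM in FuOXP NP and 18.0 TPM in Empty NP. The highest were Eef1e1, a scaffold protein of the cytosolic complex, at 7.39 TPM in FuOXP NP and 3.45 TPM in Empty NP (0.92 on that scale, 2.14-fold higher without the pseudocount), and Aimp1, another scaffold protein, at 2.39 TPM in FuOXP NP and 3.18 TPM in Empty NP. The 19 genes of this list with whole reads pooled to 3.57-fold lower (interval 2.94 to 4.35), with 161 reads in FuOXP NP and 308 in Empty NP.

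**Figure D3:**
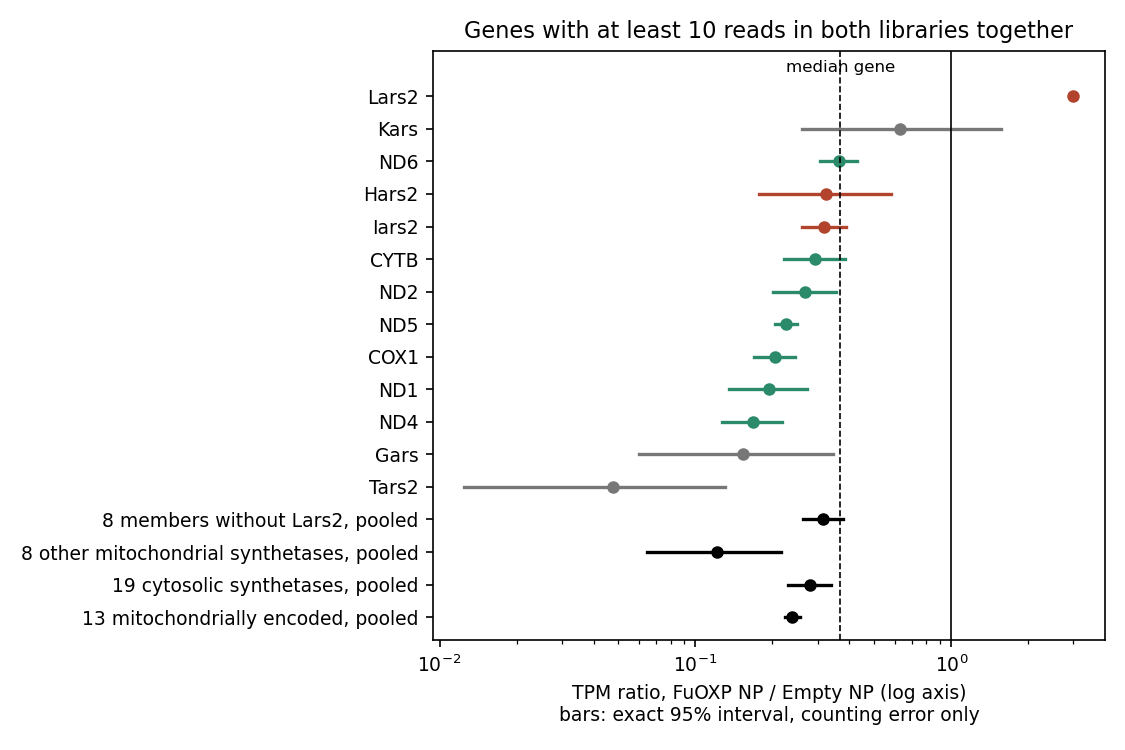
TPM ratio, FuOXP NP over Empty NP on a log axis, with exact 95% counting intervals as bars, for members (red), other synthetases (grey) and mitochondrially encoded genes (green) with at least 10 reads over both libraries, and for pooled lists (black). Lars2 is the single point to the right of equality, at 2.99-fold higher. The 8 other members pooled lie 3.17-fold lower and the 13 mitochondrially encoded genes 4.19-fold lower. The dashed line is the median gene at 2.71-fold lower, a figure that carries the pseudocount of 1 TPM. The plotted ratios carry none, so the side of the line on which they fall is not an equal comparison.

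The templates that this family serves are the 13 protein genes of the mitochondrial genome, which the table lists under their RefSeq symbols. This list was added after its values were seen. Of the 13, 3 (COX2, ATP8 and ND3) were listed at 0 in both libraries and 3 more (COX3, ATP6 and ND4L) in FuOXP NP, each on 1 read in Empty NP. The other 7 were all lower in FuOXP NP. ND5, a subunit of respiratory complex I, was listed at 576 TPM in FuOXP NP and 2556 TPM in Empty NP, 4.43-fold lower (interval 4.01 to 4.91) on 551 and 1309 reads.

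COX1, the catalytic core of complex IV, was listed at 205 TPM in FuOXP NP and 1005 TPM in Empty NP, 4.9-fold lower (interval 4.09 to 5.9). ND4 lay furthest below of the 7, at 102 TPM in FuOXP NP and 613 TPM in Empty NP, 5.98-fold lower (interval 4.59 to 7.87). ND6, on 235 and 347 reads, was nearest to the median gene at 864 TPM in FuOXP NP and 2381 TPM in Empty NP, 2.76-fold lower (interval 2.33 to 3.27). ND6 is read from the opposite strand to its neighbours. Between these lay ND1, ND2 and CYTB, at 93.7, 140 and 142 TPM in FuOXP NP and at 484, 522 and 483 TPM in Empty NP.

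Of the 10 encoded genes that passed the filter, 10 were at least 2-fold lower as deposited, beside 69.8% of all genes. Against the median gene, 4 lay 2-fold below it, beside 12.2%. Those 4 were ND4 and the 3 with a single read in Empty NP. These 3 (COX3, ATP6 and ND4L) passed only through that read, so the filter fixed their count as lower. Among encoded genes with reads in both libraries, all were at least 2-fold lower and ND4 alone lay 2-fold below the median gene. Together the 13 genes had 1234 reads in FuOXP NP and 2769 in Empty NP, 4.19-fold lower (interval 3.92 to 4.48). The skeletal muscle markers, summed at 0.317 TPM in FuOXP NP and 79.5 TPM in Empty NP, differed in the same direction, and their part in the result was not tested. Lars2 at 2.99-fold higher and these genes at 4.19-fold lower therefore differed in opposite directions in the same libraries.

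Other genes of mitochondrial translation were described from lists by function. The amidotransferase that completes glutaminyl-tRNA after Ears2 has 3 subunits. Gatc was listed at 19.1 TPM in FuOXP NP and 81.3 TPM in Empty NP (18 and 41 reads), Gatb at 7.54 TPM in FuOXP NP and 14.9 TPM in Empty NP, and Qrsl1 at 0.554 TPM in FuOXP NP and 0 in Empty NP. The partners of Ears2 were thus seen in at least 1 library, where Ears2 itself was listed at 0 in both.

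Of 18 mitochondrial translation factors, 13 passed the filter, 5 were at least 2-fold lower and 2 at least 2-fold higher, beside 69.8% and 2.34% of all genes. The median was -0.91, and 11 of the 13 lay above the median gene. The 16 genes with whole reads pooled to 1.9-fold lower (interval 1.8 to 2.01), on 2674 reads in FuOXP NP and 2727 in Empty NP. Most of these were reads of Mtif3, Slirp and Gfm2. The lowest were Gfm1, an elongation factor, at 3.89 TPM in FuOXP NP and 13.7 TPM in Empty NP, and Lrpprc, a stabiliser of mitochondrial messenger RNA, at 0.897 TPM in FuOXP NP and 4.19 TPM in Empty NP. The highest were Taco1, a translational activator of COX1, at 4.14 TPM in FuOXP NP on 3 reads, and Pdf, a deformylase of new mitochondrial proteins, at 2.24 TPM in FuOXP NP on 2 reads, both listed at 0 in Empty NP. Both passed the filter through FuOXP NP alone, so it fixed their count as at least 2-fold higher. At a mean of 5 TPM that count was 0, and the share of all genes was not computed there. Of the 1704 exon bases of Pdf, 1363 overlap Vps4a and Cog8, and 245 of the 1383 of Taco1 overlap an antisense gene.

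Of 22 genes of mitochondrial tRNA processing and modification, 14 passed the filter, 8 were at least 2-fold lower, beside 69.8% of all genes, and 0 at least 2-fold higher. The median was -1.20, or 0.24 above the median gene. The 18 genes with whole reads pooled to 2.67-fold lower (interval 2.03 to 3.52), on 93 reads in FuOXP NP and 133 in Empty NP. The lowest were Hsd17b10, a subunit of mitochondrial ribonuclease P, at 0 in FuOXP NP and 8.23 TPM in Empty NP, and Qtrt1, a queuosine transferase, at 0 in FuOXP NP and 2.7 TPM in Empty NP. The highest were Trmt61b, a tRNA methyltransferase, at 3.29 TPM in FuOXP NP and 3.69 TPM in Empty NP, and Pus1, a pseudouridine synthase, at 0.875 TPM in FuOXP NP and 1.63 TPM in Empty NP. None of these lists had a median above 0.

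Of 13 genes of mitochondrial transcription and nucleoids, 9 passed the filter, 4 were at least 2-fold lower, beside 69.8% of all genes, and 0 at least 2-fold higher. The median was -0.86, or 0.58 above the median gene. The 9 genes with whole reads pooled to 97 reads in FuOXP NP and 176 in Empty NP. That was 3.39-fold lower (interval 2.63 to 4.39) without a pseudocount, and 65 and 107 of these reads were of Polg. The median and the pool thus fall on different sides of the 2.71-fold of the median gene. The lowest were Mterf2 and Mterf4, of the mitochondrial transcription termination factor family. Mterf2 was listed at 7.31 TPM in FuOXP NP and 79.6 TPM in Empty NP, and Mterf4 at 4.71 TPM in FuOXP NP and 35.8 TPM in Empty NP. The highest were Ssbp1, the mitochondrial single-strand DNA binding protein, at 1.83 TPM in FuOXP NP and 1.7 TPM in Empty NP, and Tfb2m, a transcription factor, at 1.36 TPM in FuOXP NP and 2.54 TPM in Empty NP.

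Of 9 genes of leucine transport, sensing and breakdown, cytosolic Lars included, 7 passed the filter, 4 were at least 2-fold lower, beside 69.8% of all genes, and 0 at least 2-fold higher. The median was -1.62, or -0.18 relative to the median gene. The 7 genes with whole reads pooled to 3.73-fold lower (interval 1.74 to 8.53), on 11 reads in FuOXP NP and 22 in Empty NP. The lowest were Lars and Bckdhb, a subunit of the branched-chain ketoacid dehydrogenase, at 0 in FuOXP NP and 3.95 TPM in Empty NP. The highest were Slc7a8, a leucine transporter, at 1.42 TPM in FuOXP NP and 0.883 TPM in Empty NP, and Bckdha, the partner subunit of Bckdhb, at 2.01 TPM in FuOXP NP and 1.88 TPM in Empty NP. No gene of the leucine list came within reach of the level of Lars2.

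The place of Lars2 in the genome was examined next. GENCODE vM21 lists 9 Lars2 transcripts, 3 of them protein-coding and 5 with a retained intron. The longest coding transcript has 21 exons, and its coding sequence ends at base 2908, which leaves a 3′ UTR of 986 bases. The transcript was aligned with blastn to the 141767 transcripts of the annotation at 90% identity over at least 50 bases. It matched 2 other genes, both within the 3′ UTR, over 167 bases or 4.29% of the transcript. AA474408 on chromosome 7 matched at 96% over 50 bases and at 94.8% over 97 bases (bases 3163 to 3212 and 3233 to 3329), and Gm15564 on chromosome 16 at 98.6% over 72 bases (3278 to 3349). In genome coordinates the stretch runs from 123461933 to 123462119 on chromosome 9.

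**Figure D4:**
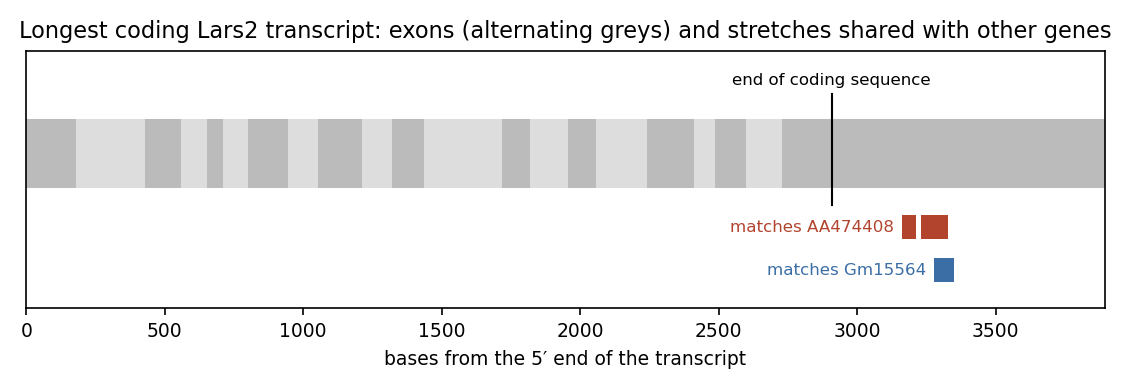
Map of the longest coding Lars2 transcript, in bases from its 5′ end, with its 21 exons in alternating greys and the stretches shared with AA474408 and Gm15564. The shared stretches fall between bases 3163 and 3349, after the coding end at base 2908.

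The longest run identical to another gene was 52 bases, with Gm15564, and 41 bases with AA474408, and the reads were 75 bases long. The aligned stretches were longer, 72 bases at 98.6% identity for Gm15564 and up to 97 bases at 94.8% for AA474408. The length of an exact run therefore does not show whether reads were shared, which was not tested. None of the other 8 members had such a match, while Mars2, Pars2, Tars2 and Wars2 did, with 2 to 297 other genes each. Matches under these settings were thus seen beyond Lars2, but they differed in the number of genes matched and in place. The 59 matched bases of Pars2, for example, did not lie after its coding end. Whether shared sequence bears on the level of Lars2 was not tested. The annotation holds no ribosomal RNA gene longer than 2475 bases, so longer ribosomal RNAs were not searched. No row used here carries the symbol AA474408 or Gm15564, and the deposited values do not show where along Lars2 its reads lay.

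The neighbours of Lars2 on chromosome 9 did not share its level. Cdcp1, 150889 bases before it, was listed at 0 in both libraries. Tmem158, 106163 bases before it, was listed at 0 in FuOXP NP and 10.3 TPM in Empty NP. Limd1, 16040 bases after it, stood at 0.393 TPM in FuOXP NP and 2.94 TPM in Empty NP, and Sacm1l, 67093 bases after it, at 2.78 TPM in FuOXP NP and 8.3 TPM in Empty NP. None of the 4 was higher in FuOXP NP.

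Rows most like Lars2 were sought among the 332 other named genes with a mean of at least 100 TPM, by the log2 TPM ratio over these 2 libraries, which is 1.58 for Lars2. The nearest was Rpph1, the RNA of nuclear ribonuclease P, at 4222 TPM in FuOXP NP and 1474 TPM in Empty NP, a log2 ratio of 1.52 on 706 and 132 reads, and its exons overlap Ccnb1ip1. Next was Snora73a, a small nucleolar RNA, at 195 TPM in FuOXP NP and 52.1 TPM in Empty NP, a log2 ratio of 1.91 on 21 and 3 reads. Then came Ccdc107 at 0.89, Rmrp at 0.82 and Rn7s2 at 0.78.

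Of those 5, 4 are small non-coding RNAs and Ccdc107, at 3627 TPM in FuOXP NP and 1964 TPM in Empty NP, is a coding gene whose exons overlap Rmrp. Of the 333 genes at this level, Lars2 included, 13 were higher in FuOXP NP and 3 at least 2-fold higher, and Lars2 ranked 2nd of them by its log2 difference. No mitochondrial synthetase other than Lars2 reaches a mean of 100 TPM, so none could enter this comparison. Among all 9488 genes tested Lars2 ranked 192nd by its log2 difference, but this rank takes no account of read number. Genes above it include Taco1 on 3 reads and Pdf on 2 reads in FuOXP NP, both at 0 in Empty NP.

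Of the abundant non-coding list, rows above 100 TPM in either library were compared with Lars2. Eyelinc18 was listed at 48431 TPM in FuOXP NP and 47911 TPM in Empty NP, and Rmrp, the RNA of ribonuclease MRP, at 2914 TPM in FuOXP NP and 1656 TPM in Empty NP. The signal recognition particle RNAs Rn7s1 and Rn7s2, near-identical copies whose reads may be split, stood at 547 and 509 TPM in FuOXP NP and at 427 and 297 TPM in Empty NP. Malat1, a long nuclear RNA, was listed at 33.3 TPM in FuOXP NP and 208 TPM in Empty NP. Of these rows Rmrp, Rn7s1 and Rn7s2 were higher in FuOXP NP, as were Lars2 and Rpph1. Eyelinc18 was nearly equal and Malat1 was lower. Rpph1, Rmrp and Rn7s2 were also picked above by their ratio, so their direction is no separate result.

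**Figure D5:**
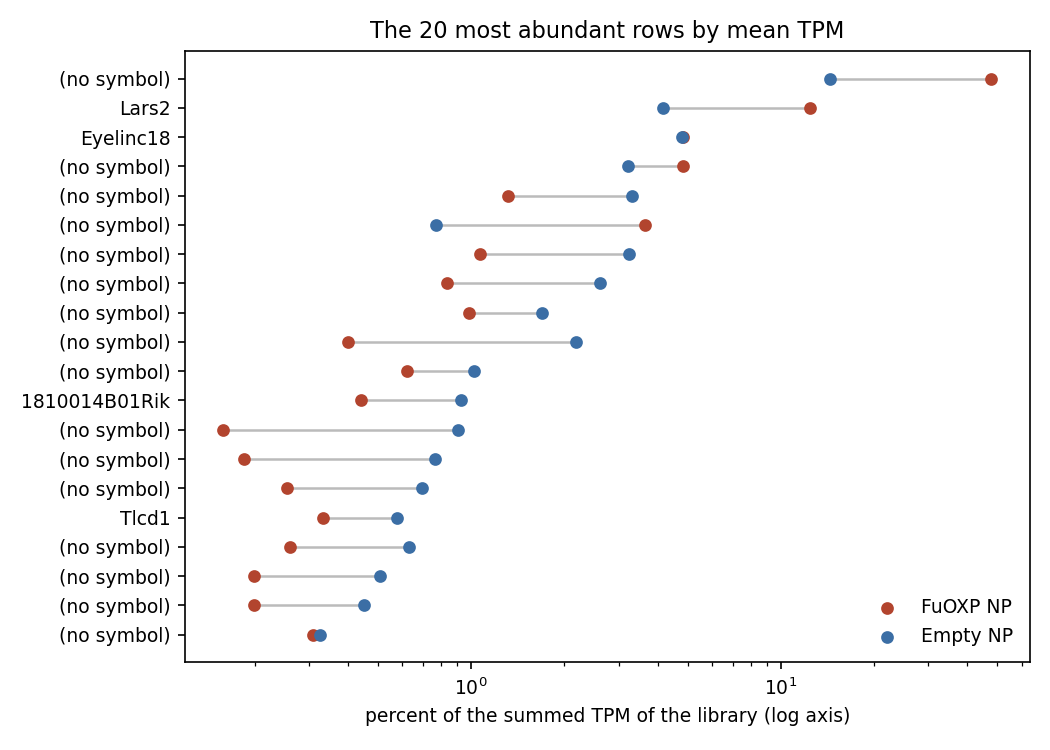
Percent of the summed TPM of each library, on a log axis, held by each of the 20 rows with the highest mean TPM, with FuOXP NP in red and Empty NP in blue. The first row has no symbol and held 47.9% in FuOXP NP and 14.4% in Empty NP, and Lars2 is the second, at 12.5% and 4.16%.

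Of the TPM total, 81.3% in FuOXP NP and 47.2% in Empty NP lay in the top 20 rows by mean level, and 16 of those had no symbol. Lars2 was 1 of 5 rows of the 20 that were higher in FuOXP NP and 1 of 3 that were at least 2-fold higher. The other two had no symbol, and the larger held 47.9% in FuOXP NP and 14.4% in Empty NP, 3.31-fold higher. The smaller was listed at 36392 TPM in FuOXP NP and 7697 TPM in Empty NP, 4.73-fold higher. The remaining 15 rows were lower in FuOXP NP. Among named genes, those of highest level next to Lars2 and Eyelinc18 were 1810014B01Rik, Tlcd1, Snx22, Taf10, Gm15441, Ap3m1, ND5, ND6, Rpph1, Ccdc107 and Rmrp, and of these 11 the last 3 were higher in FuOXP NP.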

How the data were processed

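The 2 libraries, FuOXP NP and Empty NP, hold paired-end reads of 75 bases at 73 M to 77 M per sample, per the labels' protocols. The authors deposited TPM values, 1 column per group. STAR 2.6.1a, Cufflinks 2.2.1, Cuffdiff and GRCm38 are named, per the submitters' processing notes. The annotation, the strand setting and any depletion of ribosomal RNA were not given in the sources used here.

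Of 53927 rows, 22240 without a symbol and 26 with a symbol turned into a date stayed in the totals only. Adjacent rows with equal values under different symbols (54) were counted once, and the highest row of a repeated symbol was kept. Differences were log2((FuOXP NP + 1)/(Empty NP + 1)) with a pseudocount of 1 TPM, counted at a 2-fold difference where the mean reached 1 TPM. A pseudocount understates the change of low genes.

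Exon lengths and positions came from GENCODE vM21, and for mitochondrially encoded genes from RefSeq (GRCm38.p6). Reads were TPM times length over the value of 1 read. Of genes under 10 reads, 81.7% in FuOXP NP and 81.8% in Empty NP came within 0.02 of a whole number. For Lars2 and Aars2, whose reads were not whole, the shortest length that gives whole reads was used, a choice made after seeing the data. A recovered read may be a pair. PCR reads without molecular identifiers are not independent molecules.

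The members and lists were chosen with earlier results of these data known. The genes named were the 9 members, the other mitochondrial and dual synthetases (1 counted in the lists is not reported here by itself), the 2 highest and 2 lowest of each further list, non-coding rows above 100 TPM, the neighbours and 5 nearest genes of Lars2, and the 10 most abundant named genes of each library. Mitochondrially encoded genes were added after their values were seen. The steps were tested on simulated data. Tools were Python 3.11.15, numpy 2.4.6, pandas 2.3.3, scipy 1.17.1, matplotlib 3.10.9 and blastn 2.17.0.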

Additional observations from a re-analysis of the deposited data

How the results depend on the processing

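No paired analysis was possible because each group has 1 library, and no replicate could be left out. Lars2 was higher in FuOXP NP under every alternative, with its log2 difference at 3.02 centred on the median gene, 3.08 rescaled without the 20 most abundant rows and 2.61 rescaled without Lars2 and rows with no symbol.

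The median of the other 8 members (-1.09) was -1.63 with a pseudocount of 0.1 TPM and -0.33 with 5 TPM. The median of all filtered genes moved too, to -1.82 and -0.73 at these pseudocounts. For the 8 members it was -0.14 without the 20 rows and -0.60 without Lars2 and rows with no symbol. Pooled reads gave -1.66, and -1.79 without Iars2. Centring on the median of filtered genes put the median of the 8 at 0.35, with 3 of them listed at 0 in both libraries. The median of the 4 that passed the filter was then -0.13. The pooled reads and the longer gene lists were alternatives added after seeing the data. The gap between Lars2 and that median (2.67) was 3.21 and 1.91 at the pseudocounts of 0.1 and 5 TPM, 3.22 without the 20 rows, 3.21 without Lars2 and rows with no symbol and 3.25 on pooled reads.

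The share of Lars2 was 43.5% in FuOXP NP and 11.2% in Empty NP of rows with a symbol, 54.5% and 12.4% of recovered reads, and 77.4% and 28.7% of reads on the annotated 11089 bases. Of the reads of the 9 members it was 99.93% and 99.3%.

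Counts at least 2-fold lower depended on the setting. As deposited, 69.8% of all genes tested were at least 2-fold lower and 2.34% higher, and centred on the median gene 12.2% and 12.6%. The share of all genes was not computed under the other settings. Counts under those settings are therefore not read as results about the lists. Members (4) were 2 with a pseudocount of 5 TPM, 2 at a mean of 5 TPM, 0 centred, 1 without the 20 rows, 2 without Lars2 and rows with no symbol and 0 at 4-fold. Further mitochondrial synthetases (3) were 1 with 5 TPM, 1 at a mean of 5 TPM and 1 centred. Cytosolic synthetases (19) were 9 with 5 TPM, 1 centred, 3 without the 20 rows, 10 without Lars2 and rows with no symbol and 5 at 4-fold. Translation factors (5) were 3 with 5 TPM, 8 without the filter, 3 at a mean of 5 TPM, 0 centred, 0 without the 20 rows, 1 without Lars2 and rows with no symbol and 0 at 4-fold, and those higher (2) were 0, 0 at a mean of 5 TPM, 5 centred, 5 without the 20 rows and 1 at 4-fold. tRNA processing genes (8) were 2 with 5 TPM, 3 at a mean of 5 TPM, 1 centred, 4 under each rescaling and 1 at 4-fold. Transcription and nucleoid genes (4) were 2 centred, without the 20 rows and at 4-fold. Leucine genes (4) were 1 with 5 TPM, 1 at a mean of 5 TPM, 0 centred, 1 without the 20 rows and 2 at 4-fold. Mitochondrially encoded genes (10) were 4 centred and 4 without the 20 rows. The all-gene median was -1.44 as deposited, -0.35 without the 20 rows and -0.80 without Lars2 and rows with no symbol. It was -1.82 and -0.73 with pseudocounts of 0.1 and 5 TPM, and -1.64 at a mean of 5 TPM. The scaling and the pseudocount thus move these counts for all genes. Depth limits all members but Lars2 and Iars2, and to a lesser degree Hars2, which rest on few reads.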
